A study of Homo sapiens with 14 samples.

Results

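The 10 genes described here act in the passage of cells into mitosis and out of it again, or, for MKI67, mark cycling cells: CDK1, CCNB1, CCNB2, CCNA2, CDC25C, PLK1, FBXO5, CDC20, FOXM1 and MKI67. They were taken by symbol, or by NCBI gene number in the table without symbols, from the 27819 genes that the 4 deposited count tables share. All 10 were found and all 10 passed the filter on low counts in every comparison. The 14 RNA-seq libraries came from CWR22Rv1, a human prostate cancer cell line, and all cells were kept for 72 h in DMSO alone or with an inhibitor of glycan synthesis. DMSO had 3 libraries. SGN-2FF at 100 μM and P-SiaFNEtoc at 2 μM had 3 each, Fucotrim I at 30 μM had 3, and Fucotrim II at 60 μM had 2. Fucotrim I and Fucotrim II are directed at GMDS, an enzyme that makes GDP-fucose, SGN-2FF is a fluorinated fucose that interferes with fucosylation, and P-SiaFNEtoc is directed at sialylation. Libraries of a group are labelled as biological replicates, all from a single cell line, and Fucotrim II was represented by 2 of them here. The 4 doses differ, so a difference between inhibitors is a difference between treatments as applied, not between compounds at matched dose.

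Mitosis begins when CDK1, a kinase, is switched on by its cyclin partners and by removal of inhibitory phosphates, and it ends when the anaphase-promoting complex, a ubiquitin ligase called APC/C, has the cyclins destroyed. The genes of this circuit are transcribed mainly in the late part of the cell cycle, through B-MYB and FOXM1 bound to the MuvB complex at a DNA element named the CHR, often beside CCAAT boxes bound by NF-Y. Their mRNA therefore serves as a common readout of cells in or near division. In bulk RNA, fewer cells in division and less mRNA per dividing cell cannot be told apart.

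No member was called higher than DMSO with any of the 4 inhibitors, and the summed level of the 10 genes was lower in every treated library than in every DMSO library. In CPM, read counts scaled to library size with TMM factors, the sum was 1756, 1771 and 1769 in DMSO, 1629, 1623 and 1612 with SGN-2FF, and 1572, 1572 and 1621 with P-SiaFNEtoc. It was 1405, 1408 and 1451 with Fucotrim I, and 892 and 949 with Fucotrim II. The libraries of SGN-2FF and P-SiaFNEtoc overlapped each other, those of Fucotrim I lay below both, and those of Fucotrim II lay lowest.

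The promoters are shown as background on elements that genes of this circuit share, and whether the elements bear on the changes was not tested. RefSeq gave promoter windows of 300 bases (250 before an annotated start and 50 from it, GRCh38.p14) for 9 of the 10 members, with 14 start sites in all: 4 for CDC25C, 2 each for CDK1 and FBXO5, and 1 each for CCNA2, CCNB1, CCNB2, CDC20, MKI67 and PLK1. FOXM1 had no entry. The windows were searched on both strands for TTTGAA and TTTAAA, a pair of CHR sequences, and for CCAAT. The 120 bases before the start are given below, 5′ to 3′ on the strand of the gene, for the 6 members whose stretch held at most 20 bases of annotated exon and at least 1 match. Capitals mark the matches on either strand, so that CCAAT on the opposite strand reads ATTGG and TTTGAA reads TTCAAA.
CCNB1 (chr5:69167030-69167149, plus strand): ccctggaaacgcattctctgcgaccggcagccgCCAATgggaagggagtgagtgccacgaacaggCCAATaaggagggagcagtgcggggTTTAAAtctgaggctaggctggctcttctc
CCNB2 (chr15:59105026-59105145, plus strand): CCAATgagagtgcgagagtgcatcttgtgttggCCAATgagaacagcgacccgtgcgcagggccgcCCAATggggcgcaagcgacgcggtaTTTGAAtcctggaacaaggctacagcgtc
CCNA2 (chr4:121823884-121824003, minus strand): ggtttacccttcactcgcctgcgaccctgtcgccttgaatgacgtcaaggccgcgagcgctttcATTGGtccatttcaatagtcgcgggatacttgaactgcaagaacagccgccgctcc
CDC20 (chr1:43358861-43358980, plus strand): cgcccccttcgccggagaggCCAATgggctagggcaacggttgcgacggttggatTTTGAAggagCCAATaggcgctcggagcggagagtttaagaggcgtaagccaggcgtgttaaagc
FBXO5 (chr6:152983042-152983161, minus strand): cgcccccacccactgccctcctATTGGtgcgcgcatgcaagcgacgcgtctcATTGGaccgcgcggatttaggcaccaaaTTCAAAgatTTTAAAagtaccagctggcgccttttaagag
MKI67 (chr10:128126424-128126543, minus strand): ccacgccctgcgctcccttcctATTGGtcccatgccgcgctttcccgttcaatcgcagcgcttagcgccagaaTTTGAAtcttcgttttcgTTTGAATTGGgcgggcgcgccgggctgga

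In CCNB1 the last CCAAT match began 55 bases before the start and the TTTAAA match 30 bases before it, positions of -55 and -30, and in CCNB2 the corresponding matches began at -54 and -29, with TTTGAA in place of TTTAAA. The same TTTGAA letters also began at -29 in MKI67, where the match ran into an ATTGG on its last bases, and at -29 in PLK1 and -30 at 1 start of CDC25C. A CHR match began between -40 and -20 in 6 of the 14 windows, a range chosen after the positions were seen, and in 2.38% of the windows of all 22199 protein-coding starts. Anywhere in the 300 bases, TTTGAA or TTTAAA stood in 10 of the 14 windows and in 20.2% of all windows, and CCAAT in 11 of the 14 and in 34.69%. At least 2 CCAAT matches together with a CHR match were found in 7 of the 14 windows and in 2.57% of all windows. The window of CCNA2 held a CCAAT match at -56 and neither of the CHR sequences searched for. Its printed stretch does hold cttgaa, which differs from TTTGAA in the first letter, and such variants were not searched for. Windows of 1 gene can overlap and are not independent, and a match is a match of letters only.

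**Figure D1:**
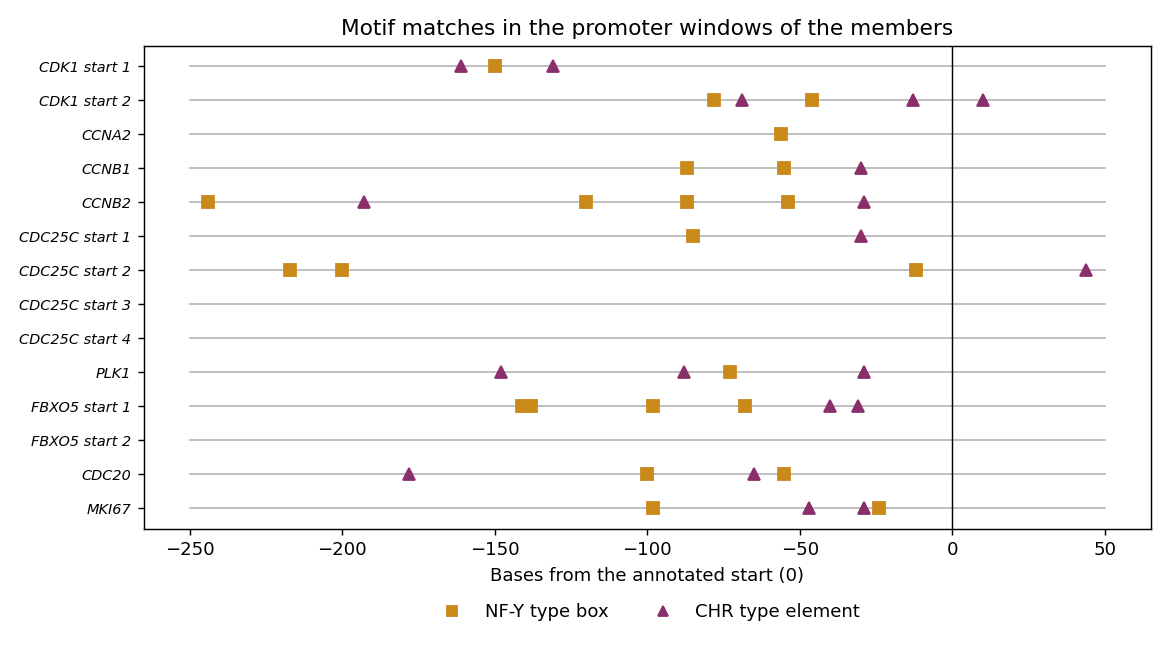
Matches in the 14 promoter windows of 9 members, with bases from the annotated start on the horizontal axis and a row for each start. Squares mark CCAAT (NF-Y type) and triangles TTTGAA or TTTAAA (CHR type) on either strand, and the triangles of CCNB1, CCNB2, MKI67, PLK1 and CDC25C start 1 stand in a column at -30 or -29.

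FOXM1, the transcription factor of this gene set, fell with Fucotrim I, Fucotrim II and SGN-2FF. Its level was 259, 259.5 and 262 CPM in the DMSO libraries, 236, 238 and 231 CPM with SGN-2FF and 239, 246 and 255 CPM with P-SiaFNEtoc. It was 197, 182 and 204 CPM with Fucotrim I and 149.6 and 174 CPM with Fucotrim II. The 5 groups formed 5 steps without overlap, from DMSO at the top through P-SiaFNEtoc, SGN-2FF and Fucotrim I to Fucotrim II, although P-SiaFNEtoc and SGN-2FF were less than 1 CPM apart and overlapped in the scaling of their own fit. The log2 fold change against DMSO was -0.42 ± 0.051 (SE) with Fucotrim I (edgeR adjusted p = 1.88e-06), -0.69 ± 0.073 with Fucotrim II (edgeR adjusted p = 8.34e-05) and -0.13 ± 0.036 with SGN-2FF (edgeR adjusted p = 0.00963). With P-SiaFNEtoc the log2 fold change was -0.075, with a 95% interval of -0.15 to 0.0048 and an edgeR adjusted p of 0.195, which did not pass 0.05. In the annotation, 15.9% of the exon bases of FOXM1 (chr12:2857680-2877174, minus strand, hg38) lie opposite exons of ITFG2, and the strand setting of the counting is not given in the sources used here.

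CDK1, the kinase at the centre of mitotic entry, fell with both Fucotrims and with P-SiaFNEtoc. Its level was 173, 189.9 and 183 CPM in DMSO, 153, 153 and 152 CPM with P-SiaFNEtoc and 161, 159 and 177 CPM with SGN-2FF. It was 146, 179 and 157 CPM with Fucotrim I and 115 and 98.5 CPM with Fucotrim II. The Fucotrim I libraries spread from 146 CPM, below all P-SiaFNEtoc libraries, to 179 CPM, inside the DMSO range. The P-SiaFNEtoc libraries lay within 2 CPM of each other and under all DMSO libraries. CDK1 fell by 41.6% with Fucotrim II (log2 fold change -0.78 ± 0.082, edgeR adjusted p = 8.22e-05) and also with P-SiaFNEtoc (log2 fold change -0.25 ± 0.042, edgeR adjusted p = 9.2e-05). With Fucotrim I the log2 fold change was -0.18 ± 0.064 (edgeR adjusted p = 0.0304), a call that was lost without DMSO replicate 2 (adjusted p = 0.0969), DMSO replicate 3 (0.0793), Fucotrim I replicate 1 (0.166) or Fucotrim I replicate 3 (0.145). With SGN-2FF it was -0.12 (95% interval -0.22 to -0.029, edgeR adjusted p = 0.057), and it passed without DMSO replicate 1 (0.0234) or SGN-2FF replicate 3 (0.00692).

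The cyclins that bind CDK1 fell most with Fucotrim II. CCNA2 encodes cyclin A2, which acts in S phase and at the entry to mitosis. Its level was 151, 155 and 153 CPM in DMSO, 136, 129 and 142 CPM with P-SiaFNEtoc and 135, 132 and 134 CPM with SGN-2FF, and it fell to 102, 108 and 98.7 CPM with Fucotrim I and 66.5 and 67.7 CPM with Fucotrim II. All treated libraries were below all DMSO libraries, and only the groups of SGN-2FF and P-SiaFNEtoc overlapped each other. CCNA2 was called lower in all 4 comparisons with DMSO. The log2 fold change was -0.57 ± 0.052 with Fucotrim I (edgeR adjusted p = 4.92e-08), the largest fall of a member with that inhibitor, -1.19 ± 0.063 with Fucotrim II (edgeR adjusted p = 3.67e-06), -0.18 ± 0.041 with SGN-2FF (edgeR adjusted p = 0.002) and -0.17 ± 0.043 with P-SiaFNEtoc (edgeR adjusted p = 0.0069). The call with P-SiaFNEtoc was lost without P-SiaFNEtoc replicate 2 (adjusted p = 0.0842). Of the exon bases of CCNA2 (chr4:121816444-121823883, minus strand), 9.24% lie opposite exons of EXOSC9.

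CCNB1 encodes cyclin B1, the main partner of CDK1 in mitosis, and was the member with the largest fall under Fucotrim II. Its level was 229.7, 237 and 231 CPM in DMSO, 215, 214 and 210.1 CPM with SGN-2FF and 211, 206 and 219 CPM with P-SiaFNEtoc. With Fucotrim I it was 170.5, 174 and 188 CPM and with Fucotrim II 91.8 and 105 CPM. Every treated library was below every DMSO library. CCNB1 (chr5:69167135-69178245, plus strand) fell by 57.9% with Fucotrim II (log2 fold change -1.25 ± 0.072, edgeR adjusted p = 5.46e-06) and by 23.7% with Fucotrim I (log2 fold change -0.39 ± 0.05, edgeR adjusted p = 3.83e-06). The falls with SGN-2FF (-0.11 ± 0.037, edgeR adjusted p = 0.0318) and P-SiaFNEtoc (-0.13 ± 0.04, edgeR adjusted p = 0.0222) were small. The call with SGN-2FF was lost without DMSO replicate 2 (adjusted p = 0.0856), DMSO replicate 3 (0.0631), or SGN-2FF replicate 1 (0.0654), 2 (0.0981) or 3 (0.0553), and that with P-SiaFNEtoc without DMSO replicate 2 (0.0634), DMSO replicate 3 (0.0572), or P-SiaFNEtoc replicate 1 (0.06) or 2 (0.143).

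CCNB2 encodes cyclin B2, a second partner of CDK1 at the membranes of the cell. Its level was 107, 108 and 101 CPM in DMSO, 103, 96.7 and 102 CPM with SGN-2FF and 93.8, 94.2 and 99.7 CPM with P-SiaFNEtoc, and it was 80.6, 82.3 and 89.6 CPM with Fucotrim I and 52.5 and 59.8 CPM with Fucotrim II. Both Fucotrim groups lay clear of DMSO, while the SGN-2FF libraries overlapped the DMSO range. The log2 fold change was -0.32 ± 0.058 with Fucotrim I (edgeR adjusted p = 0.000141), -0.91 ± 0.076 with Fucotrim II (edgeR adjusted p = 2.69e-05) and -0.13 ± 0.045 with P-SiaFNEtoc (edgeR adjusted p = 0.0438). The call with P-SiaFNEtoc did not pass in DESeq2 (adjusted p = 0.0871) and was lost without DMSO replicate 1 (0.107) or 2 (0.126), or P-SiaFNEtoc replicate 1 (0.136) or 2 (0.162). With SGN-2FF the 95% interval was -0.15 to 0.042 (edgeR adjusted p = 0.452). The ratio of CCNB1 to CCNB2 CPM was 2.15 to 2.29 in DMSO, 2.05 to 2.22 with SGN-2FF, 2.19 to 2.25 with P-SiaFNEtoc and 2.09 to 2.12 with Fucotrim I, against 1.75 in both Fucotrim II libraries. This ratio was looked at after the values were seen and was not tested.

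CDC25C, the phosphatase that removes inhibitory phosphates from CDK1, had the lowest level of the 10 genes, with 171 to 335 counts per library. Its level was 18.4, 17.1 and 17.5 CPM in DMSO, 18, 16.8 and 14.9 CPM with SGN-2FF and 13.2, 14 and 17.8 CPM with P-SiaFNEtoc. It was 12.3, 16.2 and 16.7 CPM with Fucotrim I and 10.3 and 11.1 CPM with Fucotrim II. The Fucotrim II libraries were the lowest, and neighbours among the other 4 groups overlapped. CDC25C fell with Fucotrim II (log2 fold change -0.73 ± 0.10, edgeR adjusted p = 0.00034). The log2 fold changes of -0.23 with Fucotrim I (95% interval -0.45 to -0.0072, edgeR adjusted p = 0.0882) and -0.24 with P-SiaFNEtoc (95% interval -0.43 to -0.053, edgeR adjusted p = 0.0705) did not pass, and the second passed without P-SiaFNEtoc replicate 3 (0.00644). With SGN-2FF the 95% interval was -0.25 to 0.094 (edgeR adjusted p = 0.547). Of its exon bases, 8.8% lie opposite exons of FAM53C.

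PLK1, a kinase that activates CDC25C and builds the mitotic spindle, fell with the Fucotrims. Its level was 139, 128 and 138 CPM in DMSO, 134, 131 and 116 CPM with SGN-2FF and 126, 128 and 135 CPM with P-SiaFNEtoc. With Fucotrim I it was 113, 108 and 111 CPM and with Fucotrim II 54.9 and 64.8 CPM. The groups of DMSO, SGN-2FF and P-SiaFNEtoc overlapped, Fucotrim I lay under all of their libraries, and Fucotrim II lay far below. PLK1 fell by 55.8% with Fucotrim II (log2 fold change -1.18 ± 0.084, edgeR adjusted p = 1.33e-05) and by 17.8% with Fucotrim I (log2 fold change -0.28 ± 0.053, edgeR adjusted p = 0.000245). The 95% interval of the log2 fold change was -0.17 to 0.03 with SGN-2FF (edgeR adjusted p = 0.327) and -0.14 to 0.037 with P-SiaFNEtoc (edgeR adjusted p = 0.443). Of the exon bases of PLK1 (chr16:23677656-23690367, plus strand), 12.84% lie opposite exons of other genes, ERN2 among them.

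FBXO5, also called EMI1, holds the APC/C inactive until mitosis, and it was the member with the largest fall under P-SiaFNEtoc. Its level was 47.1, 50.7 and 42.1 CPM in DMSO and 35.5, 33.9 and 34.8 CPM with P-SiaFNEtoc. It was 41.2, 39.5 and 42.9 CPM with SGN-2FF, 34.2, 39.3 and 36.8 CPM with Fucotrim I and 26.9 and 23.6 CPM with Fucotrim II. The P-SiaFNEtoc libraries lay under all libraries of DMSO and SGN-2FF and overlapped those of Fucotrim I. FBXO5 fell by 25.4% with P-SiaFNEtoc (log2 fold change -0.42 ± 0.063, edgeR adjusted p = 1.83e-05), which was the 286th lowest of the 14259 genes tested there. The log2 fold change was -0.34 ± 0.077 with Fucotrim I (edgeR adjusted p = 0.00123) and -0.89 ± 0.10 with Fucotrim II (edgeR adjusted p = 0.000122). With SGN-2FF it was -0.17 (95% interval -0.31 to -0.041, edgeR adjusted p = 0.0572), and it passed without DMSO replicate 3 (0.0157) or SGN-2FF replicate 3 (0.0438). The ratio of FBXO5 to CCNA2 CPM was 0.246 to 0.262 with P-SiaFNEtoc, below the 0.276 to 0.328 of DMSO, and 0.335 to 0.374 with Fucotrim I and 0.349 and 0.404 with Fucotrim II, both above it. With SGN-2FF it was 0.298 to 0.320, within the range of DMSO. This ratio was also looked at after the values were seen and was not tested. Of its exon bases, 4.07% lie opposite another gene.

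CDC20, the APC/C activator whose binding starts the destruction of the cyclins, fell with the Fucotrims. Its level was 209.8, 212 and 217 CPM in DMSO, 209, 209 and 192 CPM with SGN-2FF and 189, 203 and 215 CPM with P-SiaFNEtoc. With Fucotrim I it was 158, 155 and 166 CPM and with Fucotrim II 84 and 105 CPM. The SGN-2FF libraries lay under the lowest DMSO library, those at 209 CPM just under it and that at 192 CPM further below. Of the P-SiaFNEtoc libraries 1 lay within the DMSO range, and both Fucotrim groups lay clear of all others. CDC20 fell by 55.7% with Fucotrim II (log2 fold change -1.17 ± 0.091, edgeR adjusted p = 1.93e-05) and by 24.7% with Fucotrim I (log2 fold change -0.41 ± 0.049, edgeR adjusted p = 1.5e-06). The 95% interval was -0.14 to 0.032 with SGN-2FF (edgeR adjusted p = 0.399) and -0.16 to 0.018 with P-SiaFNEtoc (edgeR adjusted p = 0.286). CDC20 (chr1:43358981-43363203, plus strand) shares 0.66% of its 100-base windows with the pseudogene CDC20P1.

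MKI67 encodes Ki-67, a protein that coats mitotic chromosomes and marks cycling cells. Its level was 422, 413 and 426 CPM in DMSO, 376, 386 and 391 CPM with SGN-2FF and 375, 366 and 351 CPM with P-SiaFNEtoc. It was 391, 364 and 383 CPM with Fucotrim I and 240.4 and 239.5 CPM with Fucotrim II. Every treated library was below every DMSO library, the groups of SGN-2FF, Fucotrim I and P-SiaFNEtoc overlapped along their order, and the Fucotrim II libraries were far below and within 1 CPM of each other. MKI67 was called lower in all 4 comparisons: by 43.1% with Fucotrim II (log2 fold change -0.81 ± 0.059, edgeR adjusted p = 1.41e-05), 13.2% with P-SiaFNEtoc (log2 fold change -0.20 ± 0.039, edgeR adjusted p = 0.000433), 9.5% with Fucotrim I (log2 fold change -0.14 ± 0.046, edgeR adjusted p = 0.0153) and 7.8% with SGN-2FF (log2 fold change -0.12 ± 0.035, edgeR adjusted p = 0.0166). The call with Fucotrim I was lost without DMSO replicate 1 (adjusted p = 0.0561) or 3 (0.0729), and that with SGN-2FF without DMSO replicate 3 (0.0635), or SGN-2FF replicate 1 (0.0874) or 2 (0.0674). MKI67 was the smallest fall of a member with Fucotrim I, whereas FOXM1 fell there by 25.1%. The ratio of FOXM1 to MKI67 CPM was 0.499 to 0.534 with Fucotrim I and 0.614 to 0.628 in DMSO. It was 0.591 to 0.628 with SGN-2FF, 0.637 to 0.725 with P-SiaFNEtoc and 0.623 and 0.728 with Fucotrim II, so that it was below DMSO with Fucotrim I and above it with P-SiaFNEtoc, a ratio looked at after the values were seen and not tested.

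**Figure D2:**
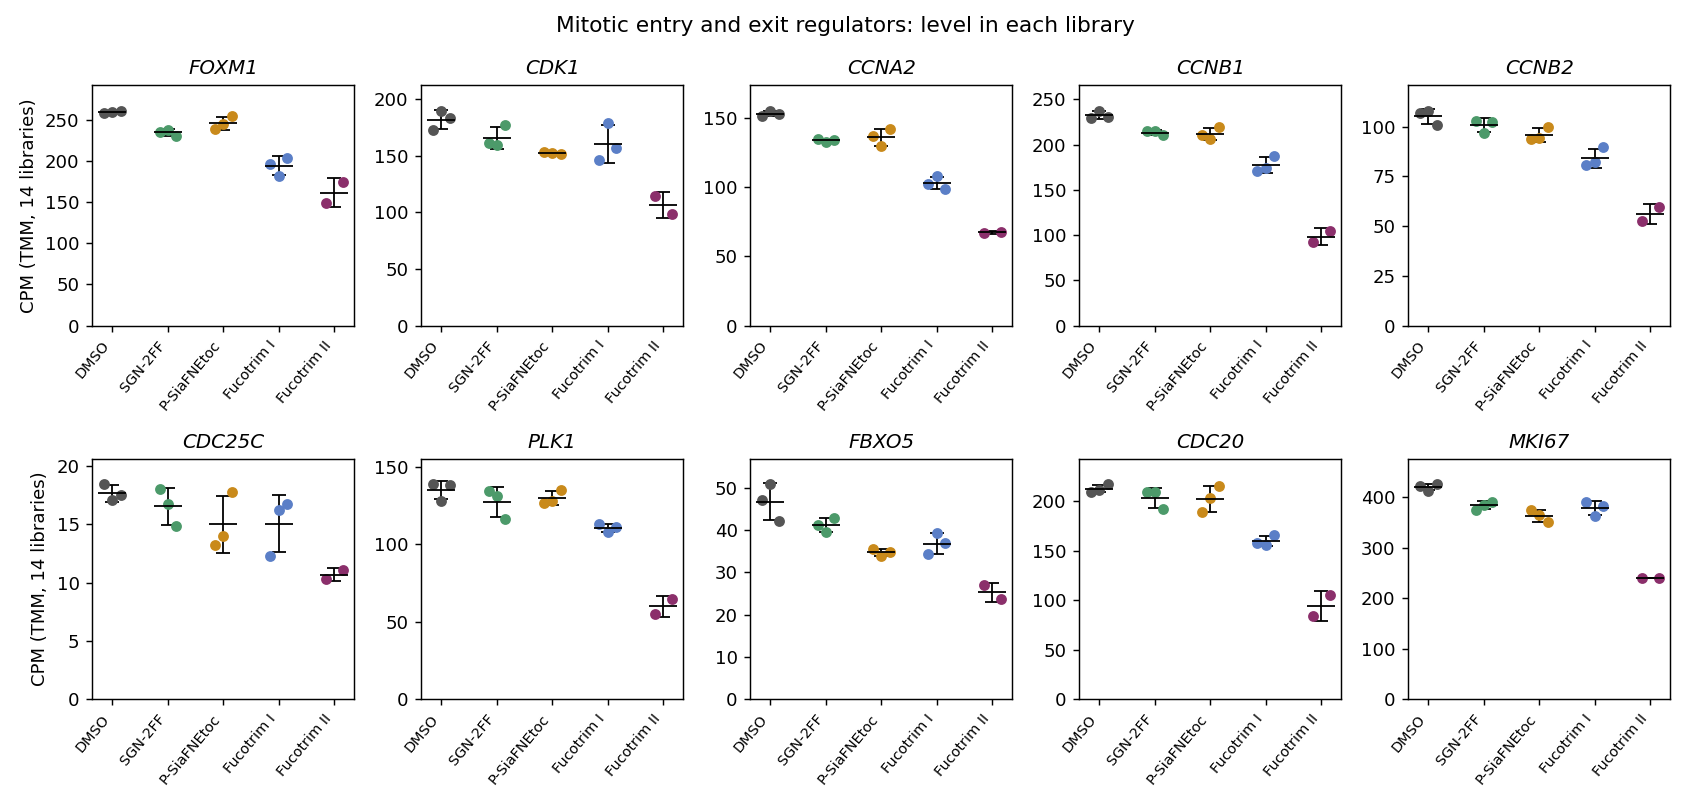
CPM of the 10 members in each of the 14 libraries, by treatment, with points for libraries, a bar for the group mean and error bars for 1 SD (n = 3, and n = 2 for Fucotrim II). Each axis starts at 0, and the 2 Fucotrim II libraries are the lowest in all 10 panels.

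Per kilobase of annotated exon, a rough scale for comparing genes, the members differed in level by a wide margin in DMSO. The length counts every base that is exon in any annotated transcript of the gene. It can exceed the length of the mRNA expressed here, so the order of the genes depends on the annotation. CDC20 had the highest level with 106 ± 1.84 CPM per kb (SD, n = 3), followed by CCNB1 with 95.6 ± 1.73 and CCNA2 with 55.6 ± 0.739. FOXM1 had 52.9 ± 0.267, CDK1 46.6 ± 2.14, CCNB2 38.2 ± 1.39, MKI67 32.7 ± 0.492 and PLK1 28.3 ± 1.25. FBXO5 with 12.1 ± 1.124 and CDC25C with 5.30 ± 0.209 CPM per kb were the lowest. No neighbouring genes in this order had overlapping DMSO libraries. CDC20 and CCNB1 were the highest and CDC25C the lowest of the 10 in every group.

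Counted over the members, the share called lower was above that of all genes in each comparison with DMSO. With Fucotrim I, 9 of 10 members were called lower at an adjusted p under 0.05, against 22.1% of the 14188 genes tested, and 0 were called higher, against 21.6%. With Fucotrim II, 10 of 10 were called lower, against 25.7% of 14617 genes, and 0 higher, against 25.6%. With SGN-2FF, 4 of 10 were called lower (FOXM1, CCNA2, CCNB1 and MKI67), against 9.08% of 14312 genes, and 0 higher, against 11.5%. With P-SiaFNEtoc, 6 of 10 were called lower (CDK1, CCNA2, CCNB1, CCNB2, FBXO5 and MKI67), against 7.33% of 14259 genes, and 0 higher, against 9.02%. The counts of 0 higher members were also 0 at an unadjusted p under 0.05 in edgeR and at an adjusted p under 0.05 in DESeq2 and limma-voom. Libraries that lay entirely below DMSO were found for 9 members with Fucotrim I (27% of all genes), 10 with Fucotrim II (34.2%), 4 with SGN-2FF (17.4%) and 7 with P-SiaFNEtoc (16.4%). These counts use the scaling of each comparison's own fit, in which the CDC20 libraries of SGN-2FF and DMSO overlapped.

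The median log2 fold change of the 10 members was -0.33 with Fucotrim I, -0.90 with Fucotrim II, -0.12 with SGN-2FF and -0.15 with P-SiaFNEtoc, against medians of 0.0012, 0.0075, 0.0036 and 4e-04 over all genes tested. The members ranged from -0.57 to -0.14 with Fucotrim I, from -1.25 to -0.69 with Fucotrim II, from -0.18 to -0.052 with SGN-2FF and from -0.42 to -0.053 with P-SiaFNEtoc. All 4 comparisons use the same 3 DMSO libraries. CCNA2, CCNB1 and MKI67 were called lower in all 4 comparisons, FOXM1, CDK1, CCNB2 and FBXO5 in 3, PLK1 and CDC20 in 2, and CDC25C in 1. The calls with SGN-2FF and P-SiaFNEtoc depended on the fit. A single fit of all 14 libraries kept 1 member with SGN-2FF and lost FOXM1 (adjusted p = 0.0898), CCNB1 (0.125) and MKI67 (0.0637), and it kept 4 with P-SiaFNEtoc and lost CCNB1 (0.125) and CCNB2 (0.165). Without P-SiaFNEtoc replicate 2, 3 of the 6 members called with P-SiaFNEtoc were left, and without SGN-2FF replicate 1 or 2, 2 of the 4 called with SGN-2FF.

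**Figure D3:**
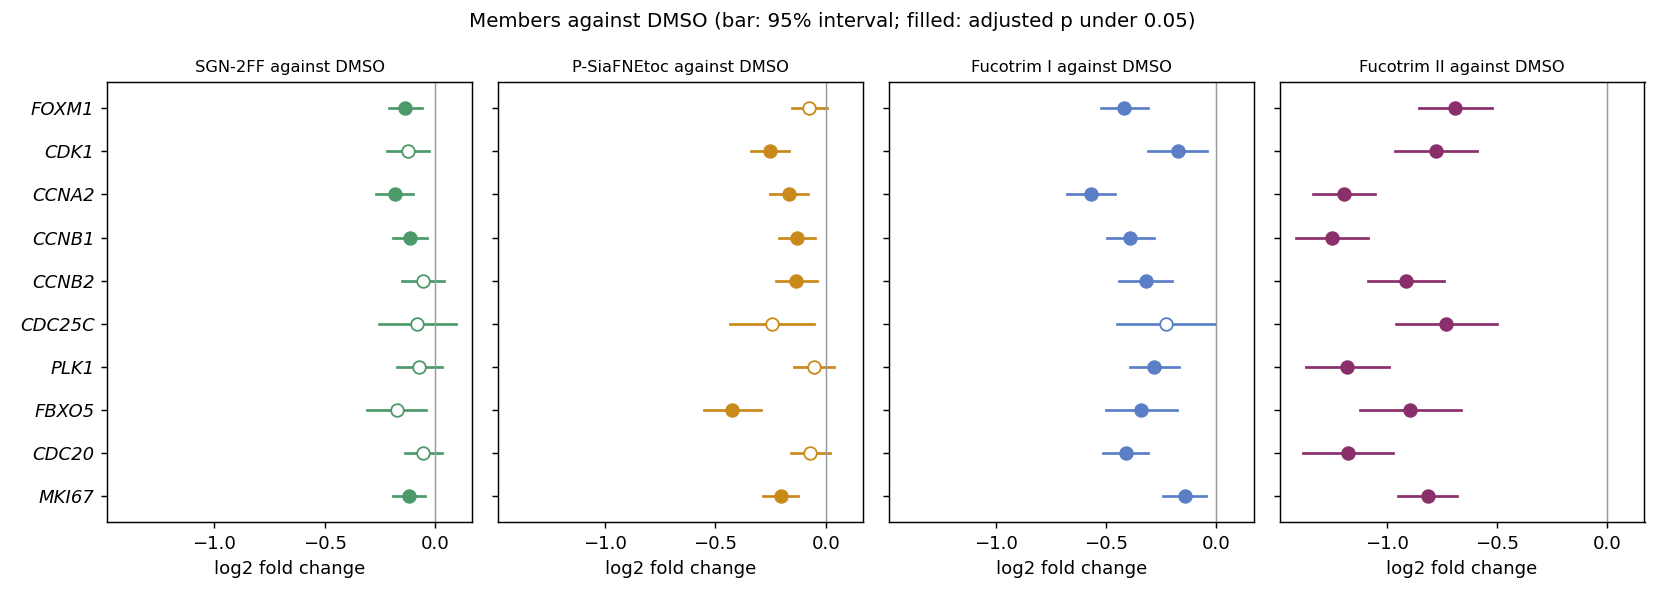
Log2 fold change of each member against DMSO in the 4 comparisons, with the 95% interval as a bar and filled points for an adjusted p under 0.05. The 10 points of Fucotrim II lie between -1.25 and -0.69, and those of SGN-2FF between -0.18 and -0.052.

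The treatments were also compared with each other. Fucotrim II at 60 μM was lower than Fucotrim I at 30 μM for 8 of 10 members, against 3.46% of the 14378 genes tested. The largest differences were those of PLK1 (log2 difference -0.89 ± 0.093, edgeR adjusted p = 0.000123), CCNB1 (-0.85 ± 0.09, 0.000133) and CDC20 (-0.75 ± 0.10, 0.00063). FOXM1 (-0.26, 95% interval -0.46 to -0.066, edgeR adjusted p = 0.086) and CDC25C (-0.49, 95% interval -0.82 to -0.16, edgeR adjusted p = 0.0591) did not pass, although their libraries did not overlap. FOXM1 passed without Fucotrim II replicate 2 (0.00135), and CDC25C without Fucotrim I replicate 1 (0.0206) or Fucotrim II replicate 2 (0.0173). FBXO5 (-0.54 ± 0.11, edgeR adjusted p = 0.00789) lost its call without Fucotrim I replicate 2 (0.058) or 3 (0.0588).

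Fucotrim I at 30 μM and P-SiaFNEtoc at 2 μM divided the members. FOXM1, CCNA2, CCNB1, CCNB2, PLK1 and CDC20, 6 of 10, were lower with Fucotrim I, against 17.1% of the 14216 genes tested, led by CCNA2 (log2 difference -0.40 ± 0.056, edgeR adjusted p = 7e-07), FOXM1 (-0.34 ± 0.053, 3.89e-06) and CDC20 (-0.34 ± 0.055, 6.92e-06). CDK1, CDC25C, FBXO5 and MKI67 did not pass, with 95% intervals of -0.042 to 0.20, -0.23 to 0.26, -0.065 to 0.23 and -0.041 to 0.16. Without Fucotrim I replicate 1, CDK1 was called higher with Fucotrim I than with P-SiaFNEtoc (log2 difference 0.15, edgeR adjusted p = 0.0377). CCNB2 (-0.19 ± 0.059, edgeR adjusted p = 0.0119) lost its call without P-SiaFNEtoc replicate 3 (0.0673).

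Between P-SiaFNEtoc at 2 μM and SGN-2FF at 100 μM, 1 of 10 members, FBXO5, was called lower with P-SiaFNEtoc, against 7% of the 14263 genes tested called lower and 1848 called in either direction, a share of the members near that of all genes. Its log2 difference was -0.25 ± 0.062 (edgeR adjusted p = 0.00413), and a single fit of all 14 libraries did not call it (adjusted p = 0.0799). CDK1 was close to the threshold (-0.13, 95% interval -0.22 to -0.037, edgeR adjusted p = 0.0504). It passed without SGN-2FF replicate 1 (0.0383), and CDC25C passed without P-SiaFNEtoc replicate 3 (0.0422). The 95% intervals of CCNA2 (-0.072 to 0.11), CCNB1 (-0.099 to 0.067), PLK1 (-0.076 to 0.12) and CDC20 (-0.11 to 0.073) lay around 0.

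**Figure D4:**
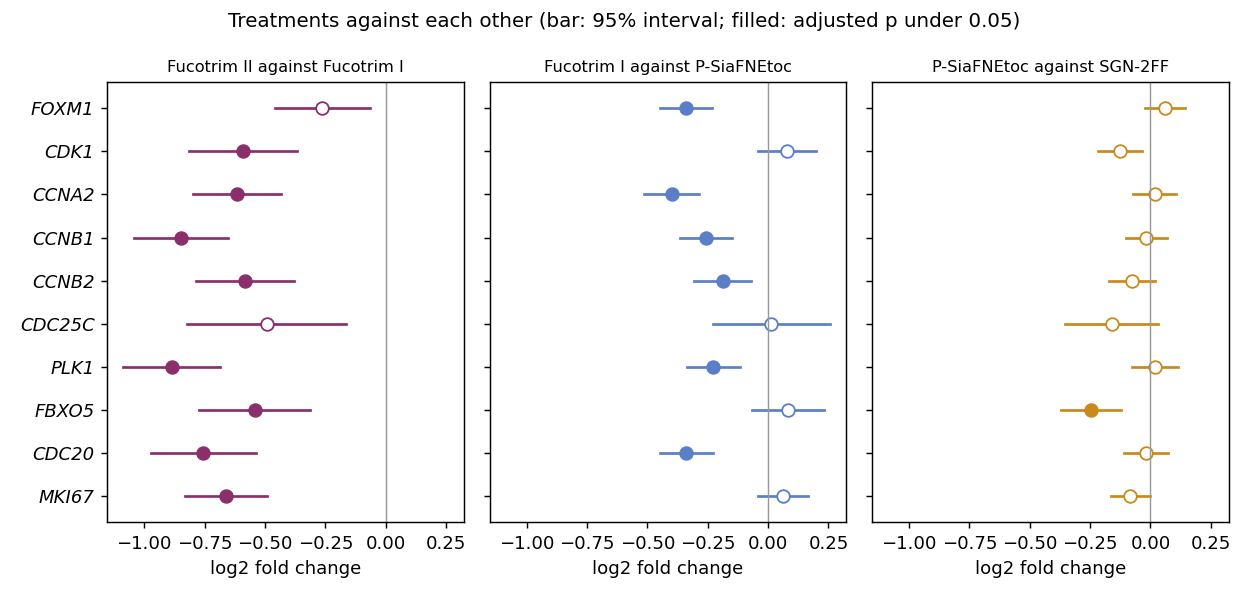
Log2 difference of each member between treatments, first named minus second, with the 95% interval as a bar and filled points for an adjusted p under 0.05. The 10 points of Fucotrim II against Fucotrim I are below 0, 8 of them filled, and 1 point, that of FBXO5, is filled for P-SiaFNEtoc against SGN-2FF.

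Other genes of the circuit were followed as lists, whose counts called lower are read against 22.1% of all genes with Fucotrim I, 25.7% with Fucotrim II, 9.08% with SGN-2FF and 7.33% with P-SiaFNEtoc. Counts called higher are read against 21.6%, 25.6%, 11.5% and 9.02% in the same order. No difference between lists was tested. Of the 19 other CDK1 activators and mitotic kinases, 18 passed the filter, and 17 were called lower with Fucotrim I, 17 with Fucotrim II, 8 with SGN-2FF and 12 with P-SiaFNEtoc, with none called higher in edgeR. Their median log2 fold changes were -0.35, -0.88, -0.15 and -0.19. BUB1, a spindle checkpoint kinase, showed the largest fall with Fucotrim I (-0.61, edgeR adjusted p = 4.32e-08), Fucotrim II (-1.43, 3.03e-06) and SGN-2FF (-0.27, 0.000133). With P-SiaFNEtoc it was MASTL, the kinase that blocks the phosphatase opposing CDK1 (-0.30, 0.000416). AURKA, the kinase that activates PLK1, fell in all 4 comparisons, from -1.22 with Fucotrim II (edgeR adjusted p = 1.02e-05) to -0.15 with SGN-2FF (0.0473).

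Among the genes that restrain CDK1 or undo its work, the counts were lower. Of 13 brakes on CDK1 and exit phosphatases, 7 were called lower with Fucotrim I, 9 with Fucotrim II, 2 with SGN-2FF and 1 with P-SiaFNEtoc, with medians of -0.16, -0.29, -0.056 and -0.076, and the count with P-SiaFNEtoc was near the share of all genes. WEE1, which puts the inhibitory phosphate on CDK1, did not pass in any of the 4 comparisons, with log2 fold changes from -0.089 (edgeR adjusted p = 0.257, Fucotrim II) to -0.0081 (0.923, SGN-2FF). Its relative PKMYT1 was called with Fucotrim II (-0.27 ± 0.098, edgeR adjusted p = 0.0395) and in no other comparison with DMSO. CHEK1, a checkpoint kinase that acts on CDC25 phosphatases, showed the largest fall of the list with Fucotrim I (-0.52, edgeR adjusted p = 6.9e-07). GTSE1 showed it with Fucotrim II (-0.96, edgeR adjusted p = 9.64e-06) and was the gene called with P-SiaFNEtoc (-0.20, 0.00211). GTSE1 stood in this list but is a spindle protein that restrains p53, neither a direct brake on CDK1 nor a phosphatase. Apart from GTSE1, no gene of the list was called with P-SiaFNEtoc. With SGN-2FF the largest fall was that of CDC14B, a phosphatase (-0.49 ± 0.10, edgeR adjusted p = 0.00141). It exceeded in size the fall of every member there.

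In the core of the APC/C, the counts called lower with Fucotrim I, SGN-2FF and P-SiaFNEtoc were near the share of all genes. Its counts called higher with the Fucotrims were below the share of all genes called higher, 21.6% with Fucotrim I and 25.6% with Fucotrim II. Of the 14 core subunits of the APC/C, 3 were called lower and 1 higher with Fucotrim I, 5 lower and 2 higher with Fucotrim II, and 1 lower and 0 higher with each of SGN-2FF and P-SiaFNEtoc, with medians of -0.030, -0.11, -0.048 and -0.031. The subunit CDC27 fell in all 4 comparisons, with log2 fold changes of -0.51 (edgeR adjusted p = 6.73e-07) for Fucotrim I and -0.99 (2.54e-05) for Fucotrim II. The subunit ANAPC2 was higher with Fucotrim I (0.36, edgeR adjusted p = 5.33e-05) and with Fucotrim II (0.41, 0.000501). Of 16 coactivators, E2 enzymes, inhibitors and substrates of the APC/C, 7, 13, 3 and 5 were called lower with Fucotrim I, Fucotrim II, SGN-2FF and P-SiaFNEtoc, with medians of -0.14, -0.55, -0.023 and -0.13. KIF11, a spindle motor, showed the largest called fall of this list with Fucotrim I (-0.47, edgeR adjusted p = 2.77e-06), SGN-2FF (-0.23, 0.000332) and P-SiaFNEtoc (-0.29, 7.52e-06), and HMMR, a spindle protein, with Fucotrim II (-1.20, 9.31e-06). FZR1, the APC/C coactivator that takes over from CDC20 after mitosis, did not pass in any comparison with DMSO (log2 fold changes from -0.072 to 0.047). UBE2C, an E2 enzyme of the APC/C, fell with Fucotrim II (-0.52 ± 0.071, edgeR adjusted p = 0.00033) and had -0.052 ± 0.053 (0.45) with Fucotrim I.

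The last list held 8 genes, the 5 subunits of the MuvB core, B-MYB, and RBL1 and RBL2, pocket proteins that join MuvB in resting cells. Of these, 6 were called lower and 1 higher with each Fucotrim, 1 lower with SGN-2FF and 2 lower with P-SiaFNEtoc, with medians of -0.21, -0.53, -0.059 and -0.037. RBL1 was among the 6 with each Fucotrim (-0.22, edgeR adjusted p = 0.036, and -0.49, 0.0103), and it is named after its values were seen. MYBL2, which encodes B-MYB, fell with Fucotrim I (-0.20 ± 0.052, edgeR adjusted p = 0.00333) and Fucotrim II (-0.60 ± 0.093, 0.000602) and did not pass with SGN-2FF (-0.029, 0.676) or P-SiaFNEtoc (-0.023, 0.775). LIN52, a MuvB subunit, had the largest fall of the list with all 4 inhibitors, from -0.82 with Fucotrim II to -0.37 with SGN-2FF. The gene that was higher was LIN37, another subunit, with 0.44 ± 0.12 (edgeR adjusted p = 0.00391) for Fucotrim I and 0.79 ± 0.13 (0.000937) for Fucotrim II, and it is named after its values were seen.

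**Figure D5:**
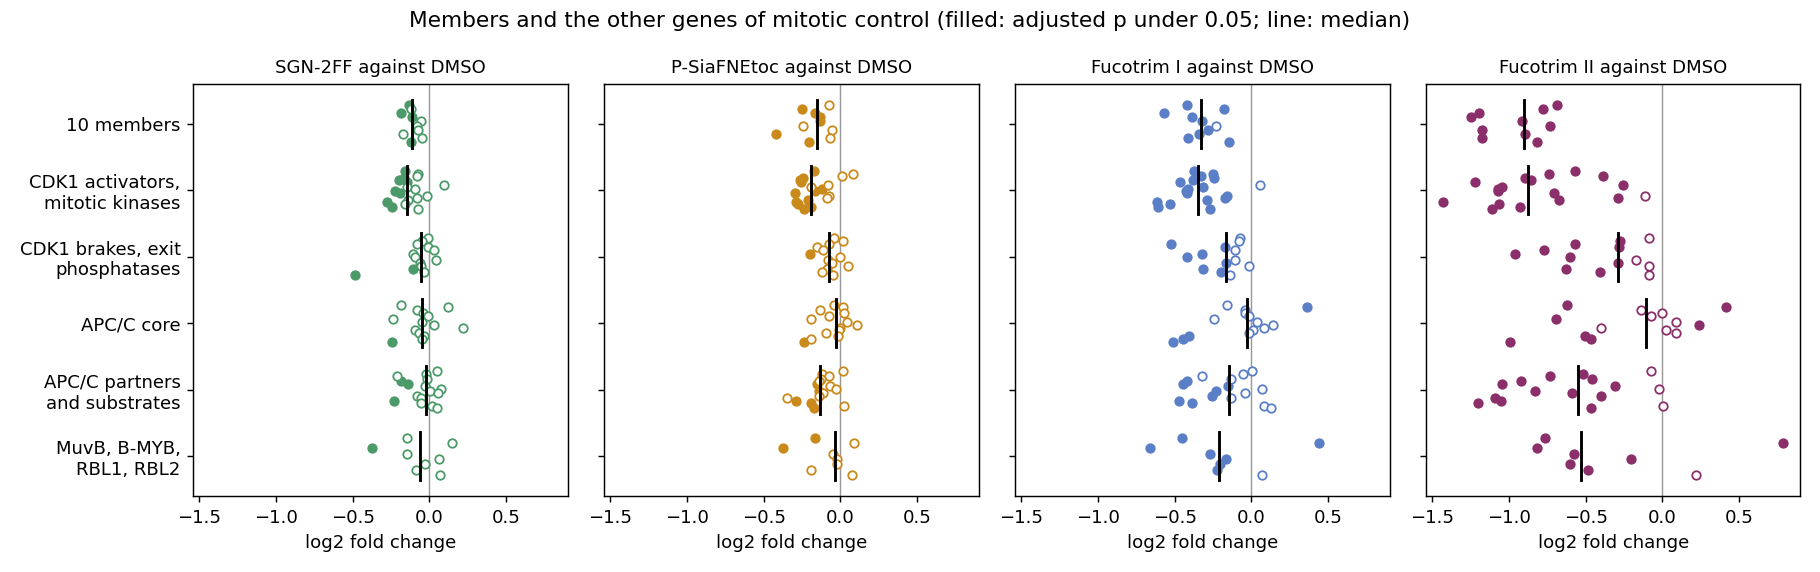
Log2 fold change against DMSO of the 10 members and of the genes of 5 lists, with a point for each gene, filled for an adjusted p under 0.05, and a black line at the list's median. With Fucotrim II the members and the CDK1 activators have medians of -0.90 and -0.88, and the APC/C core has a median of -0.11.

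The genes outside the members whose group means most resembled the members' mean profile over the 5 conditions, among 11826 candidates averaging 50 counts or more per library, were GTSE1, KIF23, BORA, NDC80 and CENPL. The root mean square difference of their centred log2 levels from the profile was 0.0105, 0.0181, 0.0263, 0.0341 and 0.0383. GTSE1, the closest, had 92.4% of its DMSO level with SGN-2FF, 87.2% with P-SiaFNEtoc, 80.02% with Fucotrim I and 51.8% with Fucotrim II. Among the members, CCNB2 lay nearest to the mean profile (0.0229) and FOXM1 farthest from it (0.123).

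The libraries held 12553094 to 19981314 counts on the shared genes (median 15541882). The share of counts from mitochondrially encoded mRNAs was 5.32% to 6.27% in DMSO, 5.40% to 6.07% with P-SiaFNEtoc, 7.26% to 7.70% with SGN-2FF, 7.85% to 12.8% with Fucotrim I and 10.8% and 15.1% with Fucotrim II, and was highest in the Fucotrim libraries, where the members fell most. Without the mitochondrially encoded genes the same number of members was called in each comparison with DMSO. That fit only drops those genes, so it cannot show whether the shift in their share bears on the members. HOXB13, KLK2, KLK3, FOLH1, FOXA1, KRT8 and KRT18, markers of prostate epithelium and prostate cancer, were all expressed, with mean levels of 30.6 to 477 CPM in DMSO. In each of the 4 comparisons with DMSO, 6 of these 7 were called higher, but not the same 6. The marker not called was FOXA1 with both Fucotrims and SGN-2FF, and FOLH1 with P-SiaFNEtoc. Of 9 markers of other cell types, PTPRC, PECAM1, COL1A2, DES, MYH11, CHGA and KRT5 were at or near 0, and COL1A1 and VIM made up nearly all of a summed level of 26.2 to 28.2 CPM in DMSO, 28.2 to 29.9 with SGN-2FF, 29.0 to 30.9 with P-SiaFNEtoc, 28.8 to 32.7 with Fucotrim I and 33.8 and 39.0 with Fucotrim II. COL1A1 was called higher with Fucotrim II (log2 fold change 0.59, edgeR adjusted p = 0.00185) and VIM with SGN-2FF (0.29, 0.0415). Neither passed in another comparison with DMSO. The part of these shifts in the members' results was not tested.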

How the data were processed

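TruSeq stranded mRNA libraries of CWR22Rv1 cells were sequenced as single reads, and the authors trimmed them with Cutadapt, aligned them to hg38 with HISAT2 and counted reads per gene with featureCounts on Galaxy. The annotation release and the strand setting are not given in the sources used here. The deposited values were raw counts in 4 tables, each with 1 inhibitor and the same 3 DMSO libraries, whose counts were identical in all 4 tables over the 27819 shared genes. Totals were 12553094 to 19981314 counts per library, and CDC25C had the fewest counts of the members.

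Each pair of groups was fitted alone with edgeR 4.0.16 (R 4.3.3; filterByExpr with a minimum count of 10 and a minimum total of 15, TMM, robust quasi-likelihood F test), and p-values were adjusted by Benjamini-Hochberg over all genes tested. A gene was called at an adjusted p under 0.05. Levels are CPM on 1 TMM scale over the 14 libraries, SE is that of the log2 fold change, and intervals are 95%. The alternatives were DESeq2 1.42.0, limma-voom (limma 3.58.1), other scalings, filters and thresholds, a fit of all libraries, a replicate block and leaving out each library. The code was tested on simulated data. Gene positions and exon overlap came from GENCODE on hg38, and promoters from RefSeq. All members are named. From the other lists, WEE1, FZR1, PKMYT1, UBE2C, AURKA and MYBL2 are named by rule, and the called genes with the largest and the smallest change per list and comparison could be named, of which mainly the largest are. The members, lists and rules were chosen with earlier results of these data known. The labels do not say whether a replicate number marks a shared batch, and p-values measure the spread between libraries of 1 cell line. Some of the prostate markers examined are not reported here.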

Additional observations from a re-analysis of the deposited data

How the results depend on the processing

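All 150 alternative values of the members with Fucotrim II against DMSO kept their direction and their call. With SGN-2FF against DMSO, 4 members were called, 2 at an adjusted p under 0.01, 1 in a fit of all 14 libraries, and 2 to 5 when 1 library was left out. With P-SiaFNEtoc against DMSO 6 were called, 4 at an adjusted p under 0.01, 4 in the fit of all 14 libraries, 5 with DESeq2, and 3 to 7 when 1 library was left out. For P-SiaFNEtoc against SGN-2FF 1 was called, 2 with at least 10 counts in every library, 2 without mitochondrially encoded genes, 0 in the fit of all 14 libraries and 1 to 2 when 1 library was left out. The cause was not tested. When 1 library was left out, log2 differences that had not been called changed sign for CDC25C (-0.0773 to 0.15) and CDK1 (-0.0099 to 0.15) in Fucotrim I against P-SiaFNEtoc, and for CDC20 (-0.0618 to 0.0313), CCNB1 (-0.0379 to 0.0034), CCNA2 (-0.0093 to 0.0504) and PLK1 (-0.0383 to 0.056) in P-SiaFNEtoc against SGN-2FF. Counts over all genes moved by more than 1.5 times in 4 comparisons. For SGN-2FF against DMSO 2946 became 1942 with DESeq2, 1609 at an adjusted p under 0.01, 1642 without SGN-2FF replicate 2 and 1695 in the fit of all libraries. For P-SiaFNEtoc against DMSO 2331 became 1482, 1171, 1516 without P-SiaFNEtoc replicate 2, and 998. For P-SiaFNEtoc against SGN-2FF 1848 became 1154, 986, 1199 without P-SiaFNEtoc replicate 2, 1046 without SGN-2FF replicate 2, and 504. For Fucotrim II against Fucotrim I 1366 became 447 at an adjusted p under 0.01, 895, 400 and 336 without Fucotrim I replicate 1, 2 and 3, 2916 without Fucotrim II replicate 1 and 3597 in the fit of all libraries, with 7 to 10 members called.

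Libraries of the same number did not deviate together in every pair, so the numbers were not taken to pair the samples. Pearson r across genes was 0.157, 0.156 and 0.027 for Fucotrim I and DMSO. For SGN-2FF and DMSO it was 0.035, -0.031 and -0.103, and for P-SiaFNEtoc and DMSO -0.055, 0.032 and -0.019. Whether a number marks a shared batch was not tested. With the replicate block 10 members were called with Fucotrim I, 10 with Fucotrim II, 3 with SGN-2FF and 7 with P-SiaFNEtoc, and 6, 6 and 1 in Fucotrim II against Fucotrim I, Fucotrim I against P-SiaFNEtoc and P-SiaFNEtoc against SGN-2FF. The 2 Fucotrim II libraries carry other numbers in their library names than in their titles, and with those numbers as the block 10 members were called in Fucotrim II against Fucotrim I. That comparison called 1366 genes without a block, 358 with the numbers of the titles and 2810 with those of the library names. For Fucotrim II and DMSO, r was -0.183 and -0.255 with the title numbers and 0.255 and 0.078 with those of the library names. Against DMSO, the block moved the calls over all genes from 6209 to 7288 with Fucotrim I and from 2946 to 2868 with SGN-2FF. With P-SiaFNEtoc they moved from 2331 to 2674, and with Fucotrim II from 7511 to 5300 (titles) or 7779 (library names). CDC25C had 171 to 335 counts per library, the fewest of the members.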
